A study of Rattus norvegicus with 20 samples.

Results

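Cytosolic ribosomal proteins are the protein subunits of the ribosomes that translate nuclear messages in the cytoplasm. They were read here as 47 genes among 14217 with a symbol of their own on a rat liver expression array. The genes were those whose probe sets carry exactly 1 symbol beginning with Rpl or Rps and a digit, or Rplp0, Rplp1, Rplp2 or Rpsa, and each was read from its probe set of highest mean over all 20 arrays. The 7 Rps6k kinases and 3 symbols with an added l and digit (Rpl7l1, Rpl26l1 and Rpl39l1) were left out. Of the 47, 29 encode proteins of the large (60S) subunit and 13 of the small (40S) subunit. The label covers 5 further symbols: Rpl3l, Rps27l and Rps4y2 are paralogs, and Rpl37-ps2 and Rps4x-ps1 are pseudogene symbols by name. The 53 probe sets of these genes included more than 1 for Rpl3, Rpl7, Rpl14, Rps24 and Rpsa. A further 36 probe sets that carry several symbols, a ribosomal protein among them, were kept apart and name no gene.

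Ribosomal proteins are made in near equal amounts and assembled with ribosomal RNA in the nucleolus, and their messages are among the most abundant in liver. The messages of most of them begin with a run of pyrimidines (C or T in the DNA), the 5' terminal oligopyrimidine or TOP element, through which growth signals acting by mTOR control their translation. Growth and Myc activity raise the making of ribosomes, and nutrient or other stress lowers it.

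The samples were livers of 20 male Harlan Sprague Dawley rats, 1 array per rat, dosed by gavage with IDDP, isodecyl diphenyl phosphate. This organophosphate serves in plastics as a softener and to slow burning. All rats, the controls included, received corn oil once daily for 4 days, and tissue from the left lobe was taken on day 5. The controls numbered 5 rats. Doses were 66, 132, 263.6, 527.1 and 1054.2 mg/kg body weight (0.169 mmol/kg at the lowest and 2.7 at the highest), with 3 rats at each dose. Levels are the deposited RMA values on the log2 scale, so a difference of 1 is 2-fold, and levels of different probe sets also depend on their probes. RNA quality was read from control probe sets at the 3' and 5' ends of the beta-actin and GAPDH messages, whose difference is larger where RNA is more degraded or less fully copied. That difference lay between 1.24 (control replicate 1) and 3.25 (132 mg/kg replicate 2), with 263.6 mg/kg replicate 2 next at 2.47. The hexokinase control probe sets, not part of this measure, did not rank these 2 arrays high. Their 3' minus 5' difference was 1.53 and 1.47 in them, against 1.67 to 1.90 in the controls. The reason for that disagreement was not tested. The 14 measured hepatocyte markers were bright, with a mean level of 14.22 to 14.27 in the controls. In whole liver, fewer cells of a type and less RNA per cell cannot be told apart.

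The start of the message was looked up in the RefSeq promoter table of the rat assembly GRCr8, which matched 40 of the 47 genes. A run of at least 8 bases that are each C or T, on the given strand and between 10 bases before and 12 bases after the annotated start, was present in 21 of the 40 (52.5%), against 7.75% of 33465 promoters. The first 5 transcribed bases were all C or T in 18 of the 40 (45%), against 4.75% of all promoters. The sequences below run from 40 bases before the start to 20 bases from it, 5′ to 3′ on the gene's strand, and capitals mark the longest run of C or T, where it reaches 8 bases, as far as it lies inside the window just given. They were chosen from genes that the results below turn on: Rps9 and Rps16 for dose, and Rpl21, Rpl13a, Rpl35 and Rps15 for RNA quality. Rps23 was chosen for the shared movement between rats, and Rps24 for the contrast of the highest with the lowest dose.
Rps9, chr1:74430418-74430477, minus strand: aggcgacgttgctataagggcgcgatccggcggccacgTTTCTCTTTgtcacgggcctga
Rps16, chr1:92770618-92770677, plus strand: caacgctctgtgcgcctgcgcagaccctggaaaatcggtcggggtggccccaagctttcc
Rps15, chr7:10068096-10068155, minus strand: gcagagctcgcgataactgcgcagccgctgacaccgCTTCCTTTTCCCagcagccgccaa
Rps23, chr2:23814477-23814536, plus strand: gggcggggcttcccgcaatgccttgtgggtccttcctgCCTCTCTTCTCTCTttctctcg
Rps24, chr16:96477-96536, plus strand: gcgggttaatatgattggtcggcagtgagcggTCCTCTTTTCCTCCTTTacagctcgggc
Rpl13a, chr1:104748894-104748953, minus strand: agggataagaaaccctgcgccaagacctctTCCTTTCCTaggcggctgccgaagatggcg
Rpl21, chr12:13386134-13386193, minus strand: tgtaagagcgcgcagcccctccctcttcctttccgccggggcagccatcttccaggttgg
Rpl35, chr3:43165902-43165961, minus strand: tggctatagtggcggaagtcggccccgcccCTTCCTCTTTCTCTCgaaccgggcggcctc

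The run was 17 bases long in Rps24, 12 in Rps15 and 9 in Rps9. In Rpl35, Rps23 and Rpl13a 15, 14 and 9 bases of the run lie inside the window, and it goes on in lower case beyond the edge. Rps16 and Rpl21 have no run of 8 in that window, where the long run of Rpl21 lies mostly before it. Of the paralogs, Rpl3l and Rps27l have none longer than 3, while Rps4y2 has one of 8. Some structural genes also have only short runs there, such as Rpl6 (2) and Rps3 (3). Rpl3 (longest run 5), Rpl24 (6) and Rps28 (8) are not shown above, though their slopes on RNA quality passed the threshold too. Over the whole 300 bases of each promoter and on both strands, the letters CCGGAAG were in 8 of the 40 (20%) against 8.75% of all promoters, AAGATGG in 8 (20%) against 7.01%, and TATAAA in 6 (15%) against 14.2%. CCGGAAG is a core letter string bound by ETS factors, AAGATGG one bound by YY1, and TATAAA the TATA box. These letter matches are descriptions of the annotated sequence.

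Brightness is given to say which probe sets were dim, not to rank the genes. Of the 47, 38 had a mean log2 level over 12 and 9 a mean under 9, and 41 lay above the median probe set (6.37). The 9 dimmer ones were the 5 paralog and pseudogene symbols and Rpl39, Rps13, Rpl30 and Rpl28. The 4 structural genes among them were read at 7.23 (Rpl39), 6.17 (Rps13), 4.71 (Rpl30) and 4.51 (Rpl28), and Rpl3l, the muscle form of Rpl3, at 5.09.

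The comparisons of each dose with the controls ask whether IDDP shifted the messages for ribosomal proteins. No ribosomal protein gene passed the threshold at any dose (limma, adjusted p under 0.05 over 31042 probe sets), and the estimates were small at every dose. The count was 0 of 47 at 66, 132, 263.6, 527.1 and 1054.2 mg/kg, where 0.00644%, 0.0677%, 0.428%, 1.68% and 3.30% of all probe sets were called. At an unadjusted p under 0.05, 0 genes differed at 66 mg/kg, where 1.70% of all probe sets were higher and 1.54% lower. At that level Rpl23a, which lies at the exit of the peptide tunnel, was the 1 gene higher at 132 mg/kg (8.11% of all probe sets were higher and 6.78% lower). At 263.6 mg/kg Rpl28 was the 1 gene higher and Rps4y2 the 1 lower (6.63% and 5.25% of all probe sets), and at 527.1 mg/kg the count was 0 (7.60% and 5.98%). At 1054.2 mg/kg 5 of 47 were lower and 0 higher, against 6.79% and 8.29% of all probe sets. With the 3' minus 5' difference as a covariate, an alternative, 11 of 47 were lower and 0 higher at that dose, against 7.90% of all probe sets lower.

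The direction of the estimates differed from dose to dose. Estimates above 0 numbered 45 of 47 at 66 mg/kg, 40 at 132, 29 at 263.6, 13 at 527.1 and 7 at 1054.2 mg/kg. With the 3' minus 5' covariate the numbers were 42, 23, 12, 13 and 7. The median difference over the 47 genes was 0.08, 0.09, 0.02, -0.06 and -0.12 in the same order, beside -0.00, -0.02, 0.01, -0.01 and -0.01 over all probe sets. These 5 comparisons share the same 5 control rats. The large and the small subunit lay close together: at 66 mg/kg the medians were 0.10 for 60S and 0.06 for 40S genes, and at 1054.2 mg/kg they were -0.12 and -0.15. The 36 probe sets of several symbols, which the 47 genes do not include, had medians of 0.10, 0.13, 0.01, -0.04 and -0.12.

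The intervals limit how large a shift these arrays allow. The 95% interval lay wholly within a 1.5-fold difference in either direction for 47, 46, 44, 46 and 45 of the 47 genes from the lowest to the highest dose. At 1054.2 mg/kg the 2 genes outside were Rpl37-ps2 and Rps4y2. The median standard error of a difference was 0.09 log2, with 5 control rats and 3 rats per dose.

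The median over the 47 genes in each rat, relative to the control mean of each gene, showed overlapping groups. In control replicates 1 to 5 it was -0.10, 0.04, 0.07, 0.01 and -0.01. At 66 mg/kg it was 0.01, 0.09 and 0.14, at 132 mg/kg 0.06, 0.26 and -0.01, and at 263.6 mg/kg -0.02, 0.12 and -0.06. At 527.1 mg/kg it was 0.01, -0.16 and 0.01, and at 1054.2 mg/kg -0.10, -0.19 and -0.01. The highest rat was 132 mg/kg replicate 2, which also had the highest 3' minus 5' difference, and the lowest was 1054.2 mg/kg replicate 2. Control replicate 1 was the lowest control on both measures, and without it the median difference over genes was 0.06 at 66 mg/kg and -0.14 at 1054.2 mg/kg. With each rat left out in turn, the median at 1054.2 mg/kg ranged from -0.17 to -0.06, the latter without that dose's replicate 2. At 66 mg/kg it ranged from 0.06 to 0.12. Without the second rats at 132 and 263.6 mg/kg, the median difference was 0.01 at 132 mg/kg and -0.03 at 263.6 mg/kg. Without 527.1 mg/kg replicate 2 it was 0.00 at that dose.

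**Figure D1:**
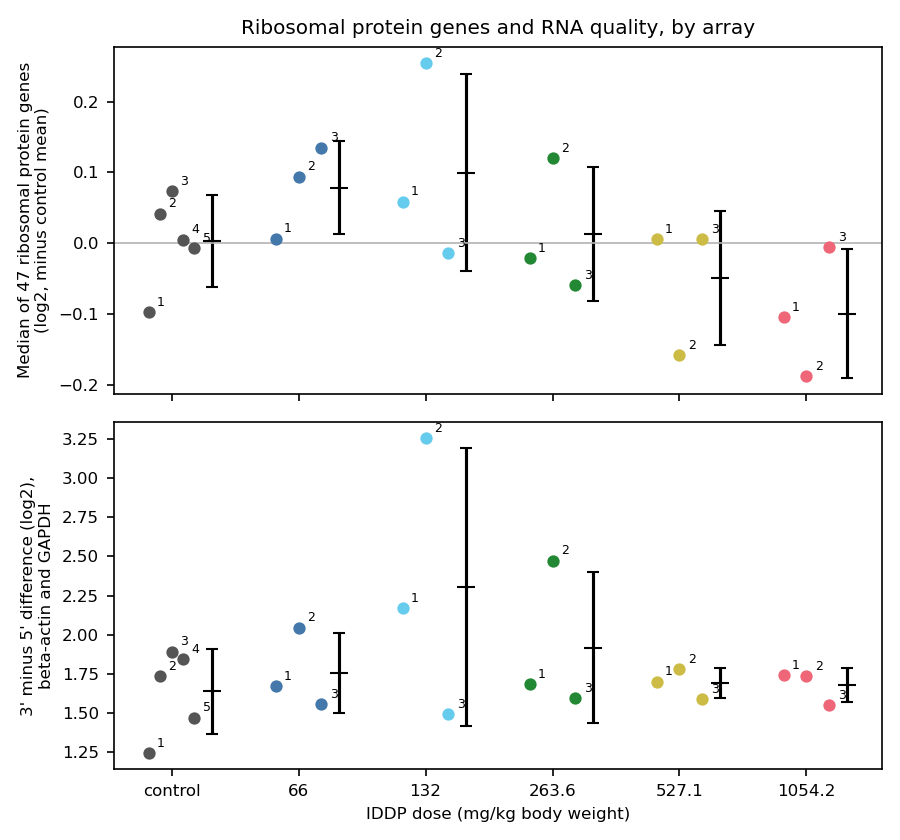
Upper panel: the median over the 47 genes of the log2 level minus the gene's control mean, 1 point per rat with its replicate number, by dose of IDDP in mg/kg. Lower panel: the 3' minus 5' difference of beta-actin and GAPDH in log2 for the same rats. Black bars give the group mean and SD (n = 5 controls, n = 3 per dose). The rat highest in both panels is 132 mg/kg replicate 2, at 0.26 and 3.25.

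At 1054.2 mg/kg the largest estimate was that of Rps9, a protein of the small subunit on the side where the message enters. Its log2 level was 13.17, 13.06, 13.14, 13.15 and 13.13 in the controls and 12.72, 12.76 and 13.04 in the 3 rats at 1054.2 mg/kg. All 3 dosed rats lay below all controls, with replicate 3 close to the lowest control. The difference was -0.29 ± 0.08 (SE; 95% interval -0.47 to -0.11), or 0.818-fold, with an adjusted p of 0.0655 in limma, which misses the threshold. The level was 13.09, 13.10 and 13.22 at 66 mg/kg and 13.11, 13.12 and 13.10 at 132 mg/kg. It was 12.91, 12.96 and 13.09 at 263.6 mg/kg and 13.05, 12.94 and 13.16 at 527.1 mg/kg. The rats at 66 and 132 mg/kg lay within or near the range of the controls, and the rats at 263.6 and 527.1 mg/kg overlapped them.

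Over the rank of the dose, from 0 for control to 5, Rps9 fell by 0.05 ± 0.01 log2 per step (SE, adjusted p = 0.0455 in limma), and was the only one of the 47 genes to pass. All probe sets were called by this trend in 5.05% of cases, and were lower in 2.08%. The call was lost in 13 of the 20 fits that left out 1 rat, where adjusted p ranged from 0.023 to 0.132 over the 20. It stayed past the threshold without control replicate 2, 132 mg/kg replicate 2, 263.6 mg/kg replicates 1 or 3, 527.1 mg/kg replicates 1 or 3 or 1054.2 mg/kg replicate 3. At an unadjusted p under 0.05, 10 of the 47 genes had a falling and 0 a rising trend, against 7.58% and 9.13% of all probe sets. With the 3' minus 5' difference of each array as a covariate, 18 had a falling and 1 a rising trend at that level, against 8.86% of all probe sets falling. In that fit 3 genes passed: Rps9 (adjusted p = 0.0372), Rps16 (0.0436) and Rpl24 (0.047), each falling by 0.04 to 0.05 per step, where 7.12% of all probe sets were called.

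The other small subunit genes with a low estimate at 1054.2 mg/kg were Rps16, Rps23 and Rps3. Rps16, whose tail reaches the peptidyl site of the ribosome, was at 13.21, 13.39, 13.50, 13.33 and 13.28 in the controls and at 13.07, 13.03 and 13.26 at 1054.2 mg/kg. The highest of the dosed rats lay above the lowest control, so the groups overlap. The difference was -0.22 ± 0.10 (SE, adjusted p = 0.266 in limma). Rps23, a protein of the decoding centre, was at 13.73, 13.83, 13.90, 13.80 and 13.83 in the controls and at 13.62, 13.48 and 13.74 at 1054.2 mg/kg. Its groups also overlap, and the difference was -0.20 ± 0.09 (adjusted p = 0.268). Rps3, which lines the entry of the message channel, differed by -0.20 ± 0.09 (adjusted p = 0.291), with dosed rats at 12.72, 12.68 and 13.02 against 12.91 to 13.11 in the controls.

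Of the large subunit genes, Rpl39, a small protein of the peptide exit tunnel, differed most at 1054.2 mg/kg. It was at 7.31, 7.32, 7.19, 7.29 and 7.18 in the controls and at 7.15, 6.93 and 7.08 in the dosed rats, which all lay below the controls. The difference was -0.20 ± 0.09 (SE, adjusted p = 0.293 in limma). The dosed and control groups did not overlap for 5 of the 47 genes: Rps9, Rpl39, Rpl34 and Rps29 were lower (5.81% of all probe sets were) and Rpl37-ps2 was higher (6.60% were). Rpl4 and Rpsa differed by -0.02 ± 0.10 each.

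**Figure D2:**
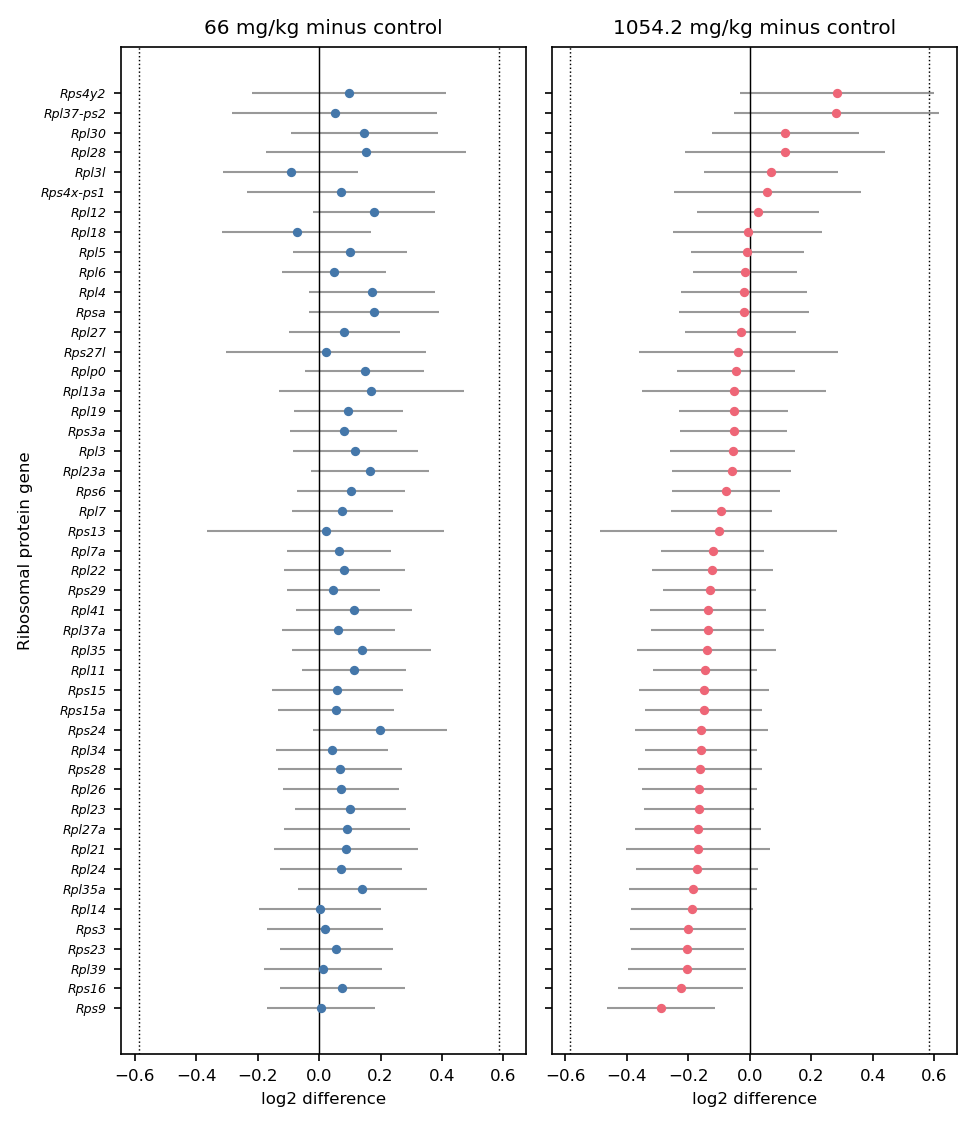
Difference from control in log2 for each of the 47 genes at 66 mg/kg (left) and 1054.2 mg/kg (right), with 95% intervals from the fit to all 20 arrays and genes in the order of the right panel. Dotted lines mark a 1.5-fold difference in either direction. Of the 47 points, 45 are above 0 on the left and 7 on the right, and Rps9 has the lowest estimate on the right, at -0.29.

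At 66 mg/kg the largest estimates were of Rps24 (0.20 ± 0.10), Rpl12 of the stalk base (0.18 ± 0.09), Rpsa, also known as the laminin receptor (0.18 ± 0.10), Rpl4 of the exit tunnel (0.17 ± 0.10) and Rpl13a, which can leave the ribosome to silence inflammatory messages (0.17 ± 0.14). Each had an adjusted p of 1 in limma. Rpl4 was at 13.14, 13.40, 13.42, 13.35 and 13.35 in the controls and at 13.42, 13.59 and 13.50 at 66 mg/kg. Its 3 dosed rats lay above the highest control, the first of them only just. Rpsa was at 13.09, 13.34, 13.30, 13.27 and 13.32 in the controls and at 13.38, 13.46 and 13.48 at 66 mg/kg, again without overlap. Rpl11 and Rpl23a completed the 4 genes whose groups did not overlap at this dose, all higher, where 2.68% of all probe sets were. The control farthest from the dosed rats was replicate 1 for Rpl4 and Rpsa, and without that rat the differences were 0.12 for Rpl4 and 0.13 for Rpsa.

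The highest dose was also set against the lowest, a contrast without the shared controls that was added after the dose medians were known. No gene passed (limma, 0 of 47, where 0.496% of all probe sets were called), while at an unadjusted p under 0.05 17 of 47 were lower and 0 higher, against 3.37% and 3.96% of all probe sets. The median over genes was -0.20 (-0.00 over all probe sets), with 43 of 47 below 0. Rps24, a small subunit protein mutated in some Diamond-Blackfan anaemias, was at 13.50, 13.70 and 13.65 at 66 mg/kg and at 13.24, 13.17 and 13.36 at 1054.2 mg/kg. The 2 groups of rats do not overlap, and the difference was -0.36 ± 0.12 (SE, adjusted p = 0.314 in limma). The share of all probe sets without overlap was not counted for this contrast. The second, dimmer probe set of Rps24 went the other way, at 0.29 ± 0.26. Rpl35a, of the large subunit, differed by -0.32 ± 0.11 (adjusted p = 0.366) and Rps9 by -0.30 ± 0.09 (adjusted p = 0.293). The 3' minus 5' difference was 1.67, 2.04 and 1.56 in the rats at 66 mg/kg and 1.75, 1.74 and 1.55 at 1054.2 mg/kg. With that difference as a covariate 0 of 47 genes passed in limma, where 0.673% of all probe sets were called. Its part in this contrast was not tested beyond that count.

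At 132 mg/kg the largest estimates were of Rpl13a (0.28 ± 0.14), Rps13 (-0.25 ± 0.19), Rpl37-ps2 (0.24 ± 0.16), Rps24 (0.20 ± 0.10) and Rpl23a (0.20 ± 0.09), all with an adjusted p of 0.32 or more in limma. Rps13, which helps to join the subunits, was at 5.38, 6.52 and 6.02 in the rats at 132 mg/kg against 6.13 to 6.38 in the controls. The dosed rats lay on both sides of the controls, and without replicate 1 the difference was 0.05. For Rpl37-ps2 it was -0.04 without replicate 2. At 263.6 mg/kg Rps4y2 (-0.37 ± 0.15), Rpl28 (0.35 ± 0.16), Rpl37-ps2 (0.27 ± 0.16), Rpl30 (0.18 ± 0.11) and Rpsa (0.17 ± 0.10) differed most. At 527.1 mg/kg they were Rps4x-ps1 (0.29 ± 0.15), Rpl30 (0.22 ± 0.11), Rps13 (-0.19 ± 0.19), Rps4y2 (-0.17 ± 0.15) and Rps16 (-0.16 ± 0.10). Rps4x-ps1 was very dim (mean 3.24), with rats at 4.00, 3.26 and 3.09 at 527.1 mg/kg. Without replicate 1 of that dose its difference was 0.02.

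The paralog and pseudogene symbols went their own ways. Rps4y2 is named as a Y-linked copy of the small subunit protein S4, though the assembly GRCr8 places it on chromosome 4. It was at 8.38, 8.29, 8.10, 8.11 and 8.33 in the controls, at 7.94, 8.02 and 7.65 at 263.6 mg/kg and at 8.63, 8.65 and 8.30 at 1054.2 mg/kg. The rats at 263.6 mg/kg lay below the controls (4.18% of all probe sets did), while those at 1054.2 mg/kg overlapped them. Its differences were -0.37 ± 0.15 (adjusted p = 0.316) and 0.28 ± 0.15 (adjusted p = 0.402) in limma. Rpl37-ps2 was at 6.16, 6.17, 6.03, 6.06 and 6.22 in the controls and at 6.30, 6.67 and 6.26 at 1054.2 mg/kg, all above the controls. The difference was 0.28 ± 0.16 (adjusted p = 0.444). Its rats at 263.6 mg/kg also lay above the controls (4.82% of all probe sets did). Rps27l, a target of p53, differed by -0.04 ± 0.16 at 1054.2 mg/kg, and Rpl3l by 0.07 ± 0.11.

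The slope of each level on the 3' minus 5' difference, fitted within dose groups, asks how these messages moved with RNA quality between rats of one dose. Of the 47 genes 7 rose with it (14.9%) and 0 fell, where 10.0% of all probe sets were called and 6.34% were called higher. They were Rpl21, Rpl13a, Rpl3, Rpl24 and Rpl35 of the large subunit and Rps15 and Rps28 of the small. At an unadjusted p under 0.05, 25 of 47 had a rising and 0 a falling slope, against 13.6% and 10.4% of all probe sets, and the median slope was 0.16 log2 per log2 unit, beside -0.01 over all probe sets. The 36 probe sets of several symbols had 9 past the threshold, all rising, and the same median of 0.16. Other gene lists, read below, rose too. Of 73 mitochondrial ribosomal protein genes 11 rose and 0 fell, with a median slope of 0.09. The counts were 6 and 0 of 33 other TOP messages and translation factors, and 6 and 0 of 22 regulators of ribosomal protein synthesis. With array medians centred, 17 of 47 passed, and the share of all called probe sets that rose went from 63.2% to 74.8%.

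Rpl21, a large subunit protein, had the smallest p of the 47. It was at 12.46, 12.71, 12.74, 12.75 and 12.63 in the controls, at 12.62, 12.85 and 12.78 at 66 mg/kg and at 12.73, 13.15 and 12.62 at 132 mg/kg. It was at 12.67, 12.83 and 12.47 at 263.6 mg/kg, at 12.66, 12.50 and 12.52 at 527.1 mg/kg and at 12.50, 12.44 and 12.53 at 1054.2 mg/kg. Its highest value was in 132 mg/kg replicate 2, the rat with the highest 3' minus 5' difference, and its lowest control was the control with the lowest. The slope was 0.32 ± 0.07 (SE, adjusted p = 0.00467 in limma). Rpl13a had a slope of 0.37 ± 0.09 (adjusted p = 0.0144), with 13.58 in 132 mg/kg replicate 2 and 12.71 in control replicate 1 against 13.03 to 13.22 in the other controls.

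The other slopes past the threshold were of similar size. Rps15, needed for export of the small subunit from the nucleus, had a slope of 0.24 ± 0.07 (SE, adjusted p = 0.0326 in limma), and Rpl35, near the mouth of the exit tunnel, one of 0.25 ± 0.07 (adjusted p = 0.0372). Rpl3, close to the peptidyl transferase centre, and Rpl24, part of a bridge between the subunits, had slopes of 0.23 ± 0.07 (adjusted p = 0.0287) and 0.23 ± 0.06 (adjusted p = 0.0305). The slope of Rps28 was 0.22 ± 0.07 (adjusted p = 0.0474). Rps9 and Rpl18 were among the 4 genes with a slope below 0, at -0.05 ± 0.07 and -0.16 ± 0.09.

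These slope calls rest on few rats. Without 132 mg/kg replicate 2, 0 of 47 genes passed in limma, with 11 rising at an unadjusted p under 0.05, 40 slopes above 0 and a median of 0.13. In that fit 3.01% of all probe sets were called, and 9.73% rose at an unadjusted p under 0.05. Without 263.6 mg/kg replicate 2, 1 gene passed (Rpl21), where 5.38% of all were called. Without both arrays 0 passed, 39 slopes were above 0 and the median was 0.09. Without both, 0.396% of all probe sets were called. The count was also lower without 132 mg/kg replicate 3 (1), 263.6 mg/kg replicate 3 (3) and control replicates 1 (2) or 3 (4). The shares of all probe sets called in these last fits are not given here, so the lower counts need not be particular to the 47 genes.

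**Figure D3:**
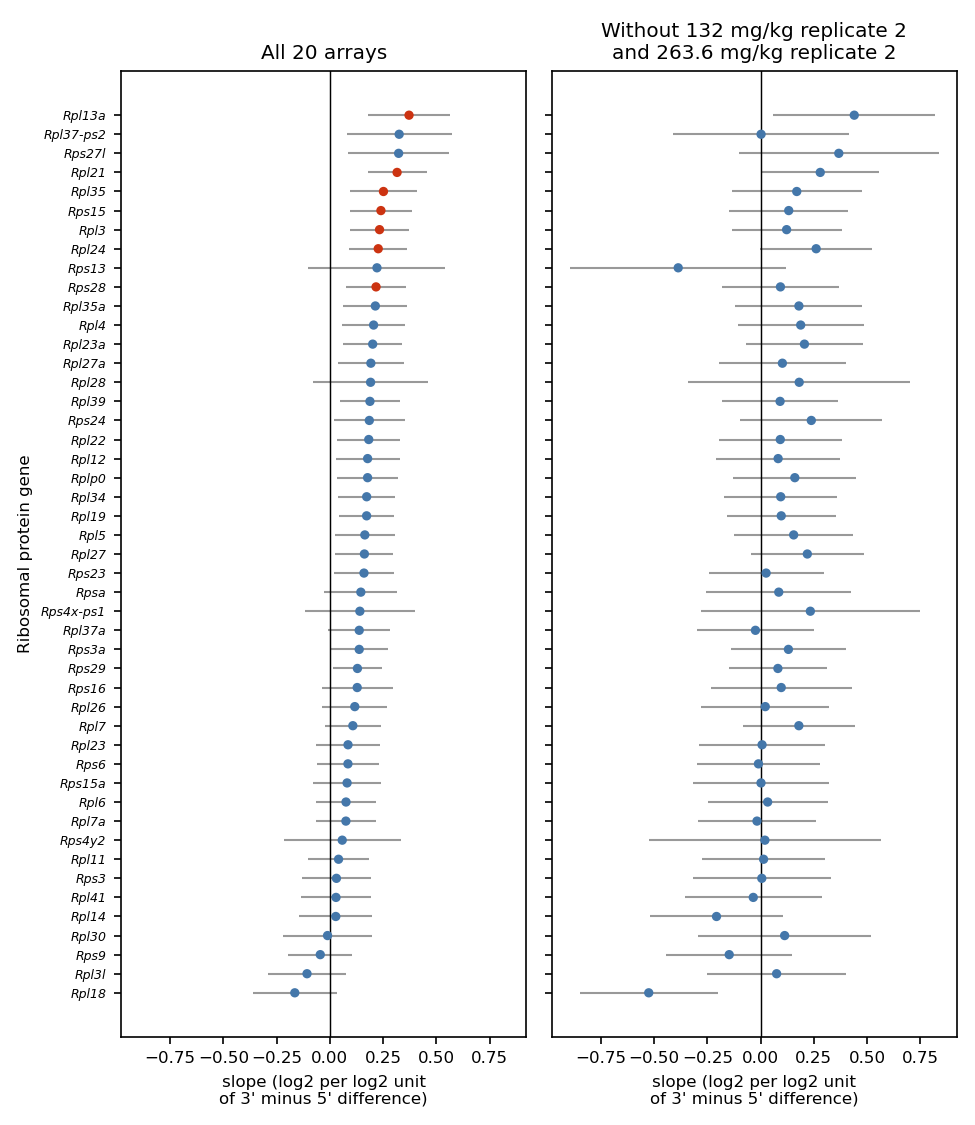
Slope of each of the 47 genes on the 3' minus 5' difference within dose groups, in log2 per log2 unit, with 95% intervals: all 20 arrays (left) and without the 2 arrays of highest difference (right), genes in the order of the left panel. Red points on the left passed the threshold. On the left 43 slopes are above 0 with 7 past the threshold, and on the right 39 are above 0 with 0 past it.

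The ribosomal protein messages moved together between rats of the same dose. Over the 20 arrays, after group means were taken out, Pearson's r between pairs of the 42 structural genes had a median of 0.70, and 76.1% of 861 pairs were over 0.5. With the 3' minus 5' difference also taken out the median was 0.64, and without the 2 arrays of highest difference it was 0.64. The same median was 0.69 among 60S genes and 0.72 among 40S genes. For the 73 mitochondrial ribosomal protein genes, which serve a separate ribosome, it was 0.31, with 29.3% of pairs over 0.5. These are descriptions over arrays that share one normalisation, and the difference between the families was not tested.

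Some genes followed the rest closely and others did not. The r of a gene with the median of the other structural genes was 0.96 for Rps23, 0.96 for Rpl22, 0.96 for Rplp0, the base of the ribosomal stalk, and 0.95 for Rpl35. It was 0.34 for Rps9 and 0.05 for Rpl18, both bright. The others at the foot of the order were dim or not structural: Rpl30 (-0.09), Rps4y2 (-0.22) and Rpl3l (-0.29). Rps9 and Rpl18 thus stood apart from the other bright members in their movement between rats.

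**Figure D4:**
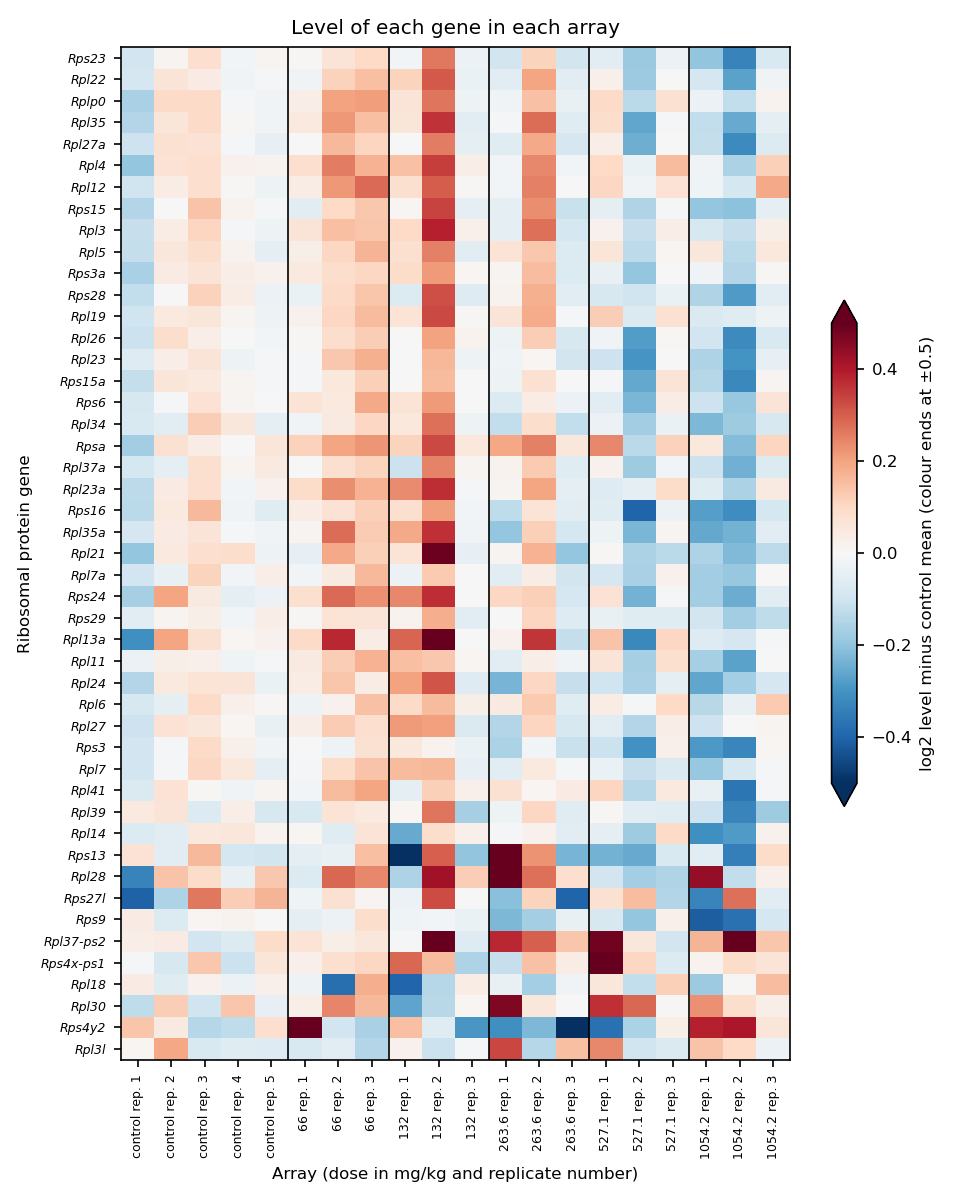
Log2 level minus the gene's control mean for the 47 genes (down) in the 20 arrays (across, by dose in mg/kg and replicate number), with genes ordered by their r with the median of the other structural genes, from 0.96 at the top to -0.29 at the bottom. Colour ends at 0.5 in either direction. Most genes are high in 132 mg/kg replicate 2 and low in 1054.2 mg/kg replicate 2. Rpl18, Rpl30, Rps4y2 and Rpl3l at the bottom are neither. Just above them, Rpl37-ps2 is high in the first of these arrays and Rps9 is low in the second.

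Other probe sets of the same genes did not always move like the one used. For Rps24 the second, dimmer probe set (mean 6.48) had a difference of 0.42 ± 0.23 at 1054.2 mg/kg where the one used had -0.16 ± 0.10, and neither passed in limma. Its slope on the 3' minus 5' difference was 0.66 ± 0.13 (adjusted p = 0.00379), beside 0.19 ± 0.08 (adjusted p = 0.157) for the one used. The second probe set of Rpl7 also rose with that difference (0.58 ± 0.14, adjusted p = 0.013), beside 0.11 ± 0.06 for the one used. The other 2 probe sets of Rpsa had slopes of 0.33 ± 0.09 and 0.39 ± 0.10 (adjusted p = 0.02 and 0.0161), beside 0.15 ± 0.08.

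Genes that build or regulate ribosomes were read from lists beside the ribosomal proteins. Of 73 genes of ribosome assembly and RNA polymerase I, 0 passed at 1054.2 mg/kg in limma (7 at an unadjusted p under 0.05), with a median of -0.06, while 4 fell over the dose rank, where 2.08% of all probe sets did. On the 3' minus 5' difference 36 of the 73 rose and 0 fell (6.34% of all probe sets rose), with a median slope of 0.32. Without 132 mg/kg replicate 2, 23 of these assembly genes were called, where 3.01% of all probe sets were. Without the 2 arrays of highest difference 4 were called (0.396% of all), with 65 slopes above 0 and a median of 0.42. The mitochondrial ribosomal protein genes had 4 and 0 called in these 2 fits. Of 33 other TOP messages and translation factors, Nap1l1, a histone chaperone, rose at 1054.2 mg/kg (0.65 ± 0.10, adjusted p = 0.000884) and 32 did not pass. Of 22 regulators of ribosomal protein synthesis 5 rose at that dose, where 3.30% of all probe sets passed in either direction. Among the 5 was Myc, the growth-related transcription factor (1.94 ± 0.24, adjusted p = 7.64e-05 in limma). Others were Eif4ebp1, an inhibitor of translation initiation under mTOR (0.72 ± 0.14, adjusted p = 0.00547), and Ddit4, an inhibitor of mTOR (1.59 ± 0.31, adjusted p = 0.00602). The 73 mitochondrial ribosomal protein genes had 0 past the threshold at 1054.2 mg/kg (9 at an unadjusted p under 0.05) and a median of 0.07, where that of the 47 cytosolic genes was -0.12. For both unadjusted counts the shares of all probe sets were 6.79% lower and 8.29% higher. At 66 and 132 mg/kg the mitochondrial genes had medians of 0.09 and 0.19, beside 0.08 and 0.09 for the 47 cytosolic genes. In the same order the medians were 0.07 and 0.07 for the other TOP messages and translation factors. They were 0.05 and 0.11 for the regulators and -0.02 and 0.08 for the assembly genes.

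Some markers of other liver cell types passed the threshold at the highest dose, where 3.30% of all probe sets did. Of 12 Kupffer cell and macrophage markers 6 fell at 1054.2 mg/kg, and their mean level was 9.48 to 9.63 in the dosed rats against 9.82 to 10.19 in the controls. Of 14 stellate cell and fibroblast markers 6 fell (7.48 to 7.63 against 7.69 to 8.04), and of 11 endothelial markers 2 fell (8.46 to 8.74 against 8.73 to 9.03). Epcam, 1 of 7 cholangiocyte markers, rose (0.65 ± 0.12, adjusted p = 0.00448 in limma). Of 14 hepatocyte markers 0 passed, 0 of them at an unadjusted p under 0.05. Mean marker levels were also below the controls at lower doses. Those of Kupffer cells were at 9.44 to 9.64 at 132 mg/kg and 9.49 to 9.81 at 527.1 mg/kg. Stellate cell markers were at 7.30 to 7.61 at 263.6 mg/kg, and endothelial markers at 8.54 to 8.58 at 263.6 mg/kg and 8.59 to 8.70 at 527.1 mg/kg. Hepatocyte markers were at 14.10 to 14.18 at 66 mg/kg and 14.10 to 14.13 at 132 mg/kg. The part of these cell types in the ribosomal protein estimates was not tested.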

How the data were processed

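RNA from 20 rat livers was hybridised to an Affymetrix rat expression array of 31099 probe sets. The authors deposited log2 values per probe set, made with RMA per the submitters' processing notes (version and grouping of arrays: not given in the sources). Groups came from the dose labels. The 57 control probe sets were left out, and 31042 were tested with no filter on brightness. In limma 3.58.1 under R 4.3.3, all arrays were fitted with 1 mean for each group (14 residual and 5.75 prior degrees of freedom), with two-sided tests and Benjamini-Hochberg adjustment over the 31042 probe sets, threshold 0.05. Further fits gave the slope on the dose rank and, within dose groups, the slope on the array's 3' minus 5' difference. Errors of differences and slopes are standard errors, and p-values measure the spread between rats. The number of arrays limits the precision. The script was tested on simulated data.

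The members and lists were chosen with earlier results of these data known. The rule that leaves out symbols ending in l and digits was read as a suffix after the protein's number, since read literally it would drop genes such as Rpl11. Genes named were those past the threshold (up to 8 per comparison), the 5 of largest change per dose, the 6 of smallest p for the slope, the paralogs and pseudogenes, and from each other list up to 3 past the threshold at 1054.2 mg/kg. Rps3, Rps23, Rps28, Rpl18 and others named for their r, group overlap or unadjusted p were chosen after their values were seen. Alternatives were: dim probe sets left out, 1 probe set per gene, medians centred, quantile normalisation again, a mean-variance trend with a robust prior, only the 2 groups compared, all probe sets of a gene averaged, structural members alone, beta-actin or GAPDH alone, the 3' minus 5' difference as a covariate, the replicate number as a block, each rat left out, and, chosen after seeing the data, the 2 arrays of highest 3' minus 5' difference left out and the contrast of highest with lowest dose. Same-numbered rats of control and dose groups did not deviate together (3 of 15 pairs correlated over 0.1), so numbers were not taken as pairs. Dose groups were not compared with each other in this check. Replicate 2 had the highest 3' minus 5' difference at 66, 132, 263.6 and 527.1 mg/kg (2.04, 3.25, 2.47 and 1.78), though not at 1054.2 mg/kg or in the controls. The slope on that difference and the replicate number therefore cannot be fully told apart.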

Additional observations from a re-analysis of the deposited data

Results flagged for a closer look

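Rpsa in the controls was 13.09 in replicate 1, below the next control at 13.27 and the highest at 13.34, a gap that passes Dixon's 95% limit for 5 samples. Rpl4 was 13.14 in the same rat, below 13.35 and 13.42, and passes the same limit. Chance marks about 1 in 20 groups, and 2 of the 23 sets of control values examined were marked. That rat also had the lowest 3' minus 5' difference (1.24).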

How the results depend on the processing

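No gene past the threshold changed sign under any alternative run, and no median over the 47 genes moved by more than the spread between rats of the dose group. The medians at 66 and 1054.2 mg/kg kept their sign throughout, while with 1 rat left out those at 263.6 mg/kg (-0.03 to 0.06) and 527.1 mg/kg (-0.08 to 0.00) took either sign, and with the 3' minus 5' covariate those at 132 and 263.6 mg/kg were -0.00 and -0.02. At 132 mg/kg, Rpl37-ps2 was at -0.04 without replicate 2 and Rps13 at 0.05 without replicate 1. The count at 1054.2 mg/kg was 1 instead of 0 (Rps9) with dim probe sets left out (7.39% of all called) and with 1 probe set per gene (6.47%). It was also 1 with a mean-variance trend and robust prior (3.11%), and 0 to 1 with each rat left out (1 without 1054.2 mg/kg replicate 3). The trend count was 0 instead of 1 with medians centred (4.64% of all called), quantile normalisation again (5.5%) and the replicate block (3%). It was also 0 without the 2 arrays of highest 3' minus 5' difference (6.12%). With that difference as a covariate it was 3 (7.12%), and with each rat left out 0 to 1. The slope count was 12 of 41 with dim probe sets left out (20.6% of all probe sets called) and 17 with medians centred (10.9%). It was 13 with a mean-variance trend and robust prior (10.1%) and 0 with the replicate block (1.75%). Without the 2 arrays it was also 0 (0.396%), and with each rat left out it was 0 to 9. Counts at the other doses were 0 under each alternative. In the replicate block fit, on rats numbered 1 to 3, the counts were 0 at every dose and the median at 1054.2 mg/kg was -0.12; the numbers are not known to pair the rats. The causes of these moves were not tested.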

Other observations

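The array also carries a control probe set for 5S ribosomal RNA, which is made by RNA polymerase III and is a part of the large subunit. Its log2 level was 7.80 ± 0.38 (SD, n = 5) in the controls, with 7.20 in control replicate 1 the lowest of all 20 arrays. Group means in order of rising dose were 8.22 ± 0.73, 7.95 ± 0.45, 7.83 ± 0.60, 7.67 ± 0.18 and 7.62 ± 0.07 (SD over 3 rats each). The highest single value, 9.06, was in 66 mg/kg replicate 2. The groups overlap, and no test was run on this control probe set.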
